A study of Homo sapiens with 24 samples.

Results

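In all, 10 genes of the G1 phase were followed in cell lines of diffuse large B-cell lymphoma, DLBCL, after silencing of FOXP1: the D-type cyclins CCND1, CCND2 and CCND3, the E-type cyclins CCNE1 and CCNE2, the kinases CDK4 and CDK6, and the CDK inhibitors CDKN1B (p27), CDKN2C (p18) and CDKN2A (p16INK4a, with p14ARF from the same locus). All probes carrying 1 of these 10 gene names on the array were taken, 18 probes in all, out of 30142 gene names. All 10 genes had at least 1 probe, and none was dropped by a filter. The cells were germinal center B-cell (GCB)-DLBCL lines DB and K422 and the activated B-cell (ABC)-DLBCL pair OCI-Ly3 and HBL-1, all established human lines. Each line was electroporated with siFOXP1 #1 or siFOXP1 #2, 2 Stealth siRNAs against FOXP1, in 3 replicates and harvested after 48 h, and the RNA was hybridized on a 2-color Agilent array against RNA of the same line given a non-targeting siRNA (siCtrl). That gave 8 groups of 3 arrays, with siFOXP1 always in the Cy3 channel and siCtrl always in the Cy5 channel. Dyes were not swapped, so within a line a dye effect on a probe and an effect of silencing cannot be told apart. Each subtype is represented by 2 lines.

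As background, D-type cyclins are induced by growth signals and bind CDK4 or CDK6, and the active complexes begin the phosphorylation of the retinoblastoma protein that releases E2F transcription factors. E2F in turn switches on the E-type cyclins, which bind CDK2 and complete the passage from G1 to S. INK4 proteins such as p16INK4a and p18 bind CDK4 and CDK6 and keep D-type cyclins out, while p27 acts mainly on cyclin-CDK2 complexes. In DLBCL, cyclin D2 is one of the genes used to tell ABC tumors from GCB tumors, and loss of the CDKN2A locus is a known lesion of the ABC type. FOXP1 is a forkhead transcription factor that is highly expressed in ABC-DLBCL.

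The sequences that carry the main readings are shown first. The probes are 60 bases long, are printed in the sense of the transcript, and have no part singled out by capitals. The CCND2 probe is shown because it lies far upstream of the gene's brightest probe and gave the same direction of change, the CDKN1B probe because it gave a smaller change in DB than the brightest one, and the CCND1 probe because it is the brightest of a gene that was near background in 3 lines. They lie on the plus strand of hg18 at chr12:4258280-4258339, chr12:12762386-12762445 and chr11:69167820-69167879.
CCND2, probe A_24_P270235: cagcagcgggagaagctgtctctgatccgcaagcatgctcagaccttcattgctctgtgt
CDKN1B, probe A_23_P204696: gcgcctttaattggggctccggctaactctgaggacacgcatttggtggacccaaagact
CCND1, probe A_24_P193011: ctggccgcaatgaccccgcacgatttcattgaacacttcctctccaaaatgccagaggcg

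Promoters from RefSeq (GRCh38.p14) were searched because FOXP1 binds DNA through a forkhead domain. The table held 13 promoters of 7 of the 10 genes, each with 250 bases before and 50 bases after a start site. It held none of CCND1, CCND2 or CCNE2, so the promoters of these genes were not searched. The forkhead core TAAACA or its reverse TGTTTA was present in promoters of CDKN2C, CDKN1B and CCND3, 1 match in each gene, and in 12.3% of all 35116 promoters. The longer GTAAACA or TGTTTAC, which holds the shorter one, was found only in CCND3 among these genes and in 3.42% of all promoters. The E2F-type words TTTCGCGC and TTTGGCGC, on either strand, were in none of the 13. These are matches of letters and say nothing on binding. The 250 bases before the start are printed for the 2 inhibitors with a match, both on the plus strand, with the match in capitals. For CDKN2C this is 1 of 3 promoters in the table and the match begins 176 bases before the start, and for CDKN1B it begins 32 bases before. The match in CCND3 spans the start. The printed windows are chr1:50960495-50960744 of CDKN2C and chr12:12717118-12717367 of CDKN1B.
CDKN2C: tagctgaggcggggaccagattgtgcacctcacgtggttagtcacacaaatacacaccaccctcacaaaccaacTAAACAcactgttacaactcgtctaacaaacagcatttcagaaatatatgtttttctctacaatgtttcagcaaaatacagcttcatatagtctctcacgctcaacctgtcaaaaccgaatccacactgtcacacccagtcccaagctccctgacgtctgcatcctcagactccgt
CDKN1B: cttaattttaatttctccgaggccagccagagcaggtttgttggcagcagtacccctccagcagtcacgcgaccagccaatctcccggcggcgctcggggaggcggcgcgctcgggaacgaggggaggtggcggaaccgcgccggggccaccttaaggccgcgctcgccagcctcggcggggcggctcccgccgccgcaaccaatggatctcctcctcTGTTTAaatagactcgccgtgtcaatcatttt

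The silencing was checked on FOXP1 itself, which fell on all 24 arrays. The log2 ratio of siFOXP1 to siCtrl was -1.96 for OCI-Ly3, -1.74 for HBL-1, -1.34 for K422 and -2.00 for DB, each with a standard error (SE) of 0.08. siFOXP1 #2 lowered FOXP1 further than #1 in every line, by 0.85 to 1.40 on the log2 scale with the brightest probe (adjusted p = 0.025 or less). The gap was smaller in each line with the second FOXP1 probe. Its means with #1 and #2 were -1.70 and -2.37 in OCI-Ly3 and -1.51 and -2.07 in HBL-1. They were -1.10 and -1.75 in K422 and -1.53 and -2.54 in DB. B-cell markers were well above background on all arrays of every line (6 of 6 genes). Markers of the GCB type were so for 5 of 5 genes in both GCB lines and 2 of 5 in both ABC lines. Markers of the ABC type other than CCND2 were so for 5 of 5 genes in both ABC lines and 2 or 3 of 5 in the GCB lines. The GCB marker LMO2 was higher in OCI-Ly3 (0.45) than in DB (-0.30) and K422 (-0.76), on the level scale given below. MME, BCL6, MYBL1 and SERPINA9 were lower in both ABC lines than in both GCB lines. In OCI-Ly3, SERPINA9 was still well above background on 5 arrays and MYBL1 on 4. Of 4 T-cell markers, K422 had 3, CD3D, CD3E and CD3G, well above background on all arrays, and the other lines 0 or 1. Of 3 myeloid markers, 1 or 2 were well above background on all arrays of a line. Whether these markers bear on the values of the lines was not tested.

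Levels in control cells came from the siCtrl channel and are given as the log2 signal minus the 75th percentile of the array, so that 0 is that percentile, and probes at background mostly lay near -7. Levels of 1 gene can be compared between lines, but not levels of different genes, since probes differ. The 2 arrays of a replicate were averaged to 1 control sample, 3 for each line. Scanning fell into 2 sessions, the first with DB and OCI-Ly3 and the other with HBL-1 and K422, so levels were tested within a session alone. A level was called different when limma's adjusted p was below 0.05 and the gap reached 1 on the log2 scale. By that rule 5 of the 10 genes separated DB from OCI-Ly3, and 4 of 10 separated K422 from HBL-1. Of all genes, 25.8% were called in each of these comparisons.

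CCND2 had the widest difference of the 10 genes. Its control samples lay at 5.01, 4.90 and 4.89 in HBL-1 and at 3.25, 3.15 and 3.18 in OCI-Ly3, against -6.45, -6.71 and -6.40 in K422 and -7.08, -6.94 and -7.00 in DB. Both ABC lines were thus far above both GCB lines, where the probe was not well above background on any array. All 3 CCND2 probes gave this picture, with every array of the ABC lines well above background and none of the GCB lines. Because the GCB values are background, only a bound can be given: CCND2 was at least 217-fold higher in OCI-Ly3 than in DB (adjusted p = 3.6e-12) and at least 1370-fold higher in HBL-1 than in K422 (adjusted p = 1.1e-12). These bounds set the mean of the bright line against a floor. The floor was the higher of the dim probe and the faintest signal still well above background on each array. Both were taken after quantile normalization of the average intensity of the channels between arrays, while the adjusted p belong to the percentile-scaled levels. In an alternative, normexp, a model-based background correction, and quantile normalization replaced the percentile scaling. The measured log2 difference was then 5.89 instead of 10.20 for OCI-Ly3 minus DB and 7.70 instead of 11.45 for HBL-1 minus K422, both still called. These differences are smaller than the bounds, which therefore do not hold under all processing. CCND2 was chosen here with its use as an ABC marker known, so its level was no independent check of the lines.

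The other D-type cyclins took a different course. CCND1, the cyclin of mantle cell lymphoma, reached -2.29 ± 0.27 (SD, n = 3) in OCI-Ly3 and was well above background there on 6 of 6 arrays with its brightest probe. In DB it was so on 0 of 6 arrays, in HBL-1 on 1 and in K422 on 4, at levels from -4.88 ± 0.45 in K422 to -6.76 ± 0.39 in DB. In OCI-Ly3 the second probe was well above background on 6 of 6 arrays (-1.98 ± 0.37), but the third on 0 of 6 (-5.43 ± 0.44). Both of these probes were so on 0 of 6 arrays in DB, K422 and HBL-1. With the brightest probe, CCND1 was at least 5.09-fold higher in OCI-Ly3 than in DB (adjusted p = 4.2e-06). The measured log2 difference, 4.47, was 1.19 with normexp and quantile normalization. That was still called but is smaller than the bound, which does not hold under that processing. The lower value of HBL-1 than of K422 was called as well (-1.21 ± 0.41 SE, adjusted p = 0.034), but it rests on signals near background and was lost without K422 replicate 1 or 3 or without HBL-1 replicate 1 or 3 (adjusted p from 0.053 to 0.115), and with normexp and quantile normalization (-0.15) or the mean over probes (-0.77). CCND3, the D-type cyclin common to mature B cells, was well above background on all 24 arrays. Its level was 2.06 ± 0.23 in HBL-1 and 1.95 ± 0.30 in K422, whose control samples overlapped, then at 0.97 ± 0.15 in OCI-Ly3 and 0.33 ± 0.29 in DB, which did not overlap (each SD, n = 3). Neither difference within a session met the call.

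CDK4 was the most even of the 10. Its level ran only from 3.71 ± 0.07 in K422 to 3.96 ± 0.00 in OCI-Ly3 (SD, n = 3), and the difference within a session was 0.14 ± 0.16 and 0.11 ± 0.16 (SE). CDK6, its partner kinase, was at 3.60 ± 0.12 in DB and 3.43 ± 0.07 in OCI-Ly3, whose samples overlapped, and lower in HBL-1 at 2.51 ± 0.13 and K422 at 2.01 ± 0.27. That order followed the scan session, so line and session cannot be told apart here, and no CDK6 difference within a session was called. The second CDK6 probe gave the same order of sessions.

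CCNE1 was highest in OCI-Ly3 at 4.17 ± 0.15 (SD, n = 3), followed by DB at 3.56 ± 0.33, K422 at 3.16 ± 0.14 and HBL-1 at 2.72 ± 0.14. The samples of DB overlapped those of K422, and the steps within a session, 0.60 and 0.44, were under the limit. CCNE2 stood out in K422 at -0.59 ± 0.17, above HBL-1 at -2.38 ± 0.06, DB at -2.59 ± 0.48 and OCI-Ly3 at -3.27 ± 0.34. The difference between HBL-1 and K422 was called (-1.79 ± 0.24 SE, 3.47-fold, adjusted p = 8.3e-05).

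Of the inhibitors, CDKN2A was highest in K422 at 4.52 ± 0.11 (SD, n = 3), then at 0.06 ± 0.07 for DB, -1.69 ± 0.09 for HBL-1 and -3.03 ± 0.39 for OCI-Ly3, and no 2 lines overlapped. It was 73.7-fold lower in HBL-1 than in K422 (adjusted p = 2.4e-10) and 8.52-fold lower in OCI-Ly3 than in DB (adjusted p = 6.5e-08). On the log2 scale these differences were -6.20 and -3.09, and they were -7.37 for HBL-1 minus K422 with the mean over probes and -2.14 for OCI-Ly3 minus DB with normexp and quantile normalization, all called. A second CDKN2A probe was not well above background on any array of HBL-1 or OCI-Ly3 and was so on all arrays of DB and K422. The array lists transcripts of both p16INK4a and p14ARF for these probes, so the 2 products were not told apart. CDKN2C was bright in DB at 4.47 ± 0.14, in HBL-1 at 3.58 ± 0.21 and in K422 at 3.01 ± 0.09, and far lower in OCI-Ly3 at 0.06 ± 0.15. The difference of OCI-Ly3 from DB was 21.4-fold (adjusted p = 6.4e-10). CDKN1B was highest in HBL-1 at 1.1 ± 0.11 and lowest in DB at -0.68 ± 0.56, where replicate 1 lay at -0.04 and replicates 2 and 3 at -0.99 and -1.02. K422 at 0.27 ± 0.19 and OCI-Ly3 at 0.52 ± 0.20 lay between and overlapped. OCI-Ly3 was above DB by 1.20 ± 0.24 (SE, adjusted p = 0.0017), a call that was lost with normexp and quantile normalization, where the difference of 0.99 was just under the limit.

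**Figure D1:**
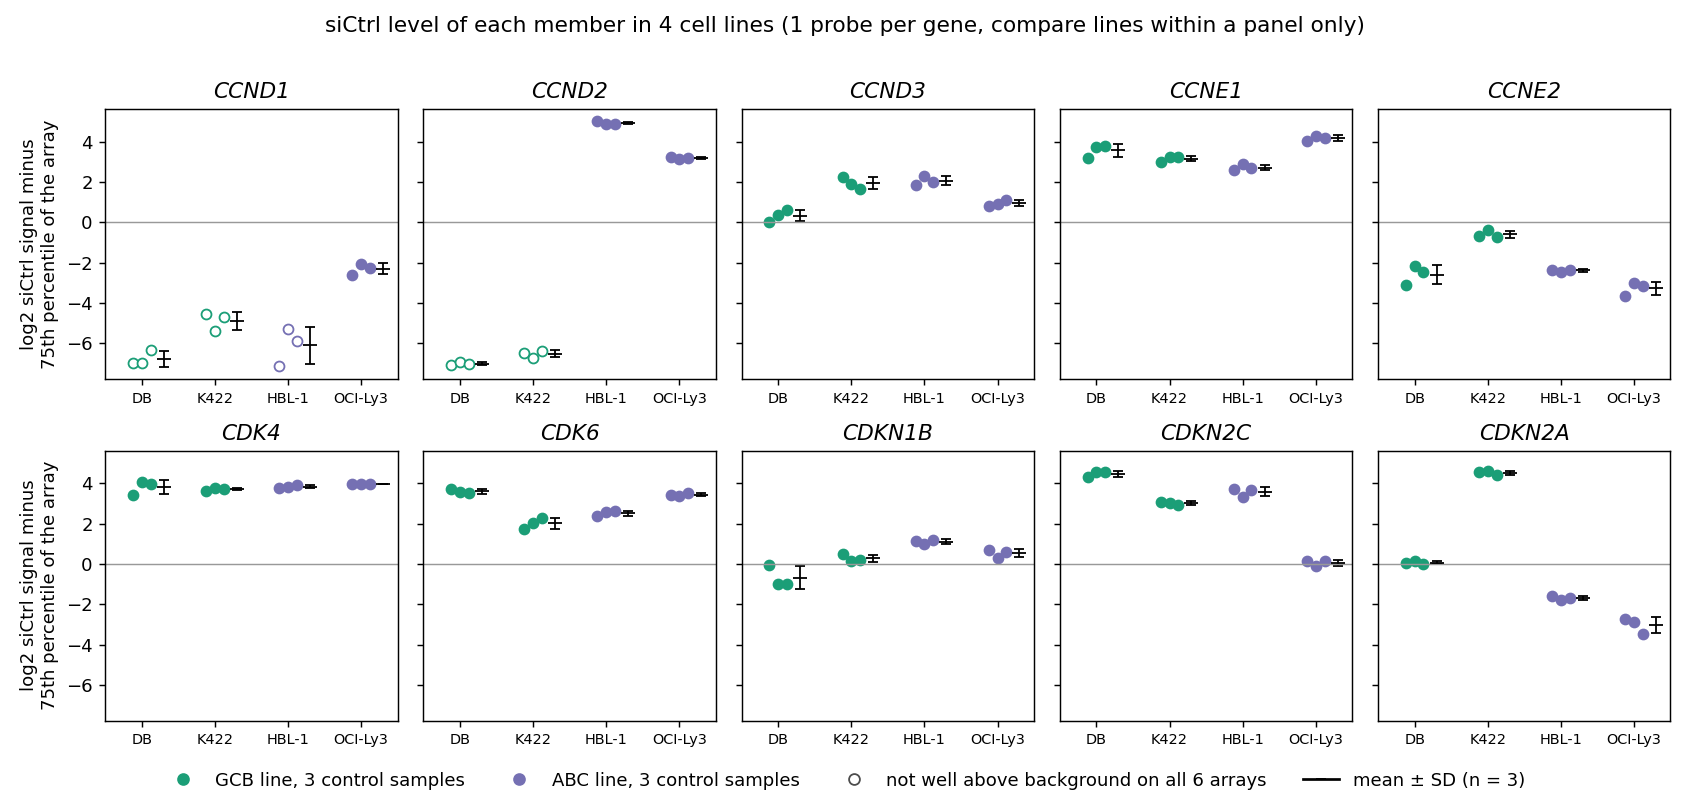
Level of each of the 10 genes in siCtrl cells, 1 panel per gene, as log2 signal minus the 75th percentile of the array, with 3 control samples and mean ± SD for each of the 4 lines, filled where all 6 arrays were well above background. CCND2 lies at 3.15 or more in the ABC lines and at background in DB and K422, CDKN2A spans from -3.03 to 4.52, and CDK4 hardly differs.

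The response to silencing was measured as log2 of siFOXP1 over siCtrl within each array. A limma fit gave each line the mean of its 2 siRNAs, and a gene was called where its adjusted p over all genes was below 0.05 and its log2 change reached 0.5 in size. In each line exactly 1 of the 10 genes was called: CCND2 lower in both ABC lines, CDKN2C higher in K422, and CDKN1B lower in DB. Of all genes, 4.42% were called for OCI-Ly3, 9.9% for HBL-1, 4.44% for K422 and 2.16% for DB, so that 1 in 10 was the general share for HBL-1. Without HBL-1 replicate 2 the count for HBL-1 was 3, with CCNE2 lower and CCND1 higher added. The median log2 change of the 10 genes was -0.04 for OCI-Ly3, -0.10 for HBL-1, -0.02 for K422 and -0.01 for DB, and that of all genes was 0 in each line.

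**Figure D2:**
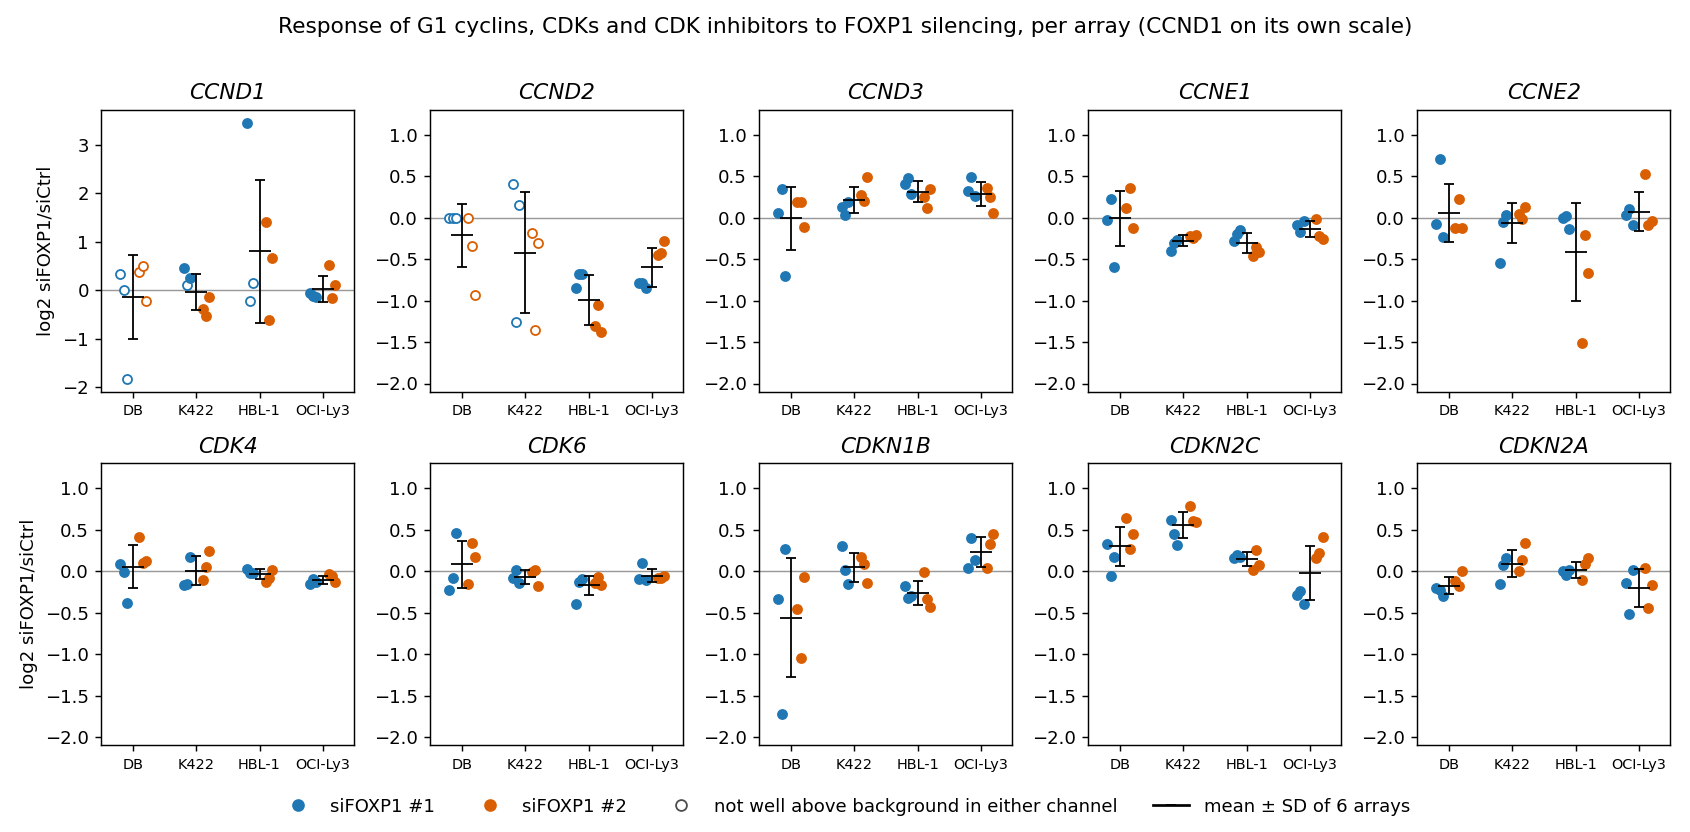
Log2 ratio of siFOXP1 to siCtrl for each of the 10 genes (1 panel each, brightest probe), 1 point per array and 6 arrays per line colored by siRNA, with mean ± SD; open points had neither channel well above background. CCND2 is below 0 on all 12 arrays of HBL-1 and OCI-Ly3, CDKN2C is above 0 on all 6 arrays of K422, and CDKN1B in DB ranges from -1.72 to 0.26.

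CCND2, well above background in the ABC lines alone, fell in both of them. In HBL-1 its ratio was -0.85, -0.68 and -0.68 with siFOXP1 #1 and -1.31, -1.05 and -1.37 with #2, a fitted change of -0.99 ± 0.17 (SE, 1.99-fold lower, adjusted p = 1.9e-04). In OCI-Ly3 it was -0.79, -0.79 and -0.84 with #1 and -0.45, -0.43 and -0.29 with #2, a fitted change of -0.60 ± 0.17 (1.51-fold lower, adjusted p = 0.020). All 12 arrays lay below 0. The other probes gave -0.69 ± 0.17 and -0.58 ± 0.12 in HBL-1 and -0.64 ± 0.17 and -0.55 ± 0.12 in OCI-Ly3 (SE), each lower on 6 of 6 arrays with an adjusted p of 0.013 or less. In DB and K422 the gene was at background in both channels on every array, and its ratio there, -0.21 and -0.42 with array values from -1.35 to 0.41, is no measurement of a change. Those noisy values enter the shared estimate of the spread. With HBL-1 and OCI-Ly3 fitted without the GCB lines, a fit added after the data were seen, the adjusted p was 4.8e-05 for OCI-Ly3 and 2.2e-06 for HBL-1. In the shared fit the call in OCI-Ly3 was lost without any 1 of its 3 replicates (adjusted p from 0.088 to 0.10), with the slide as a block (adjusted p = 0.084) and with siFOXP1 #2 alone (-0.39, adjusted p = 0.40).

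The order of the siRNAs for CCND2 differed between the ABC lines. In HBL-1 the fall was larger with #2 for all 3 probes and the arrays of the 2 siRNAs did not overlap. In OCI-Ly3 it was larger with #1 for 2 probes, again without overlap, and overlapped for the third. FOXP1 itself was lower with #2 in both lines. The difference between siRNAs, #2 minus #1, was -0.51 in HBL-1 (95% interval -1.23 to 0.21) and 0.42 in OCI-Ly3 (-0.30 to 1.13), and neither passed the test (adjusted p = 1 and 0.94). With normexp and loess, the difference in HBL-1 was called (-0.52, adjusted p = 0.0040) and that in OCI-Ly3 passed the p but not the limit on size (0.41, adjusted p = 0.038).

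**Figure D3:**
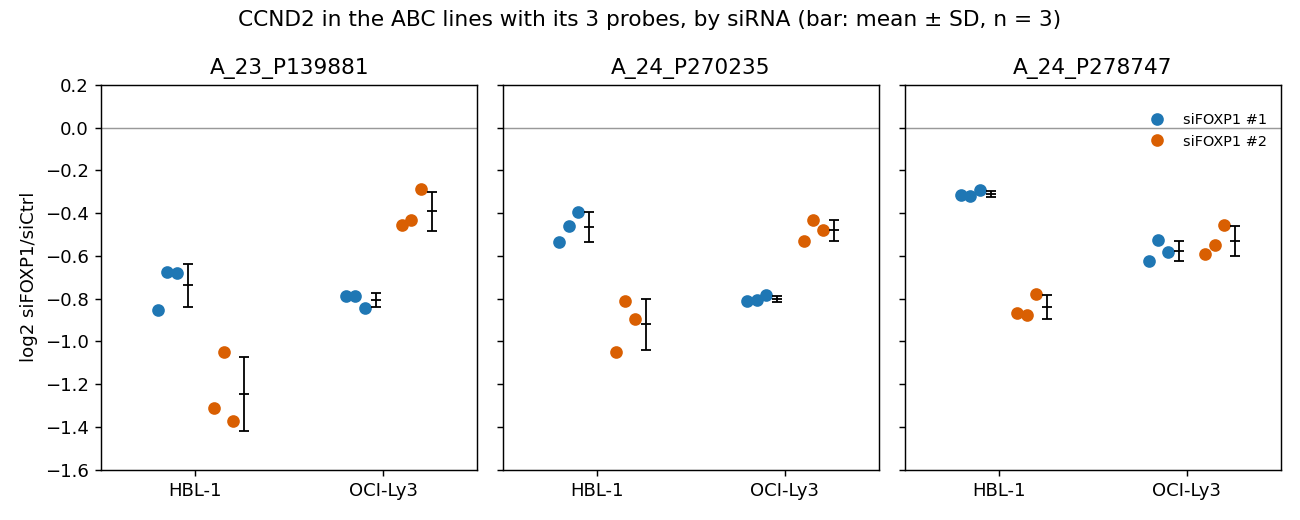
Log2 ratio of siFOXP1 to siCtrl for CCND2 in HBL-1 and OCI-Ly3 with each of its 3 probes (1 panel each), 1 point per array, with mean ± SD of 3 arrays for each siRNA. All points are below 0, siFOXP1 #2 is the lower in HBL-1 with all probes, and siFOXP1 #1 is the lower in OCI-Ly3 with the first 2 probes.

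CCND3 showed small positive ratios. It ranged from 0.12 to 0.48 (median 0.32) over the 6 arrays of HBL-1, from 0.06 to 0.49 (median 0.29) in OCI-Ly3 and from 0.03 to 0.49 (median 0.19) in K422, all above 0, and from -0.71 to 0.34 in DB. The fitted change was 0.31 ± 0.09 in HBL-1 (SE, adjusted p = 0.013) and 0.29 ± 0.09 in OCI-Ly3 (adjusted p = 0.032), past the p but under the limit on size. Its second probe gave 0.37 ± 0.08 in OCI-Ly3 (adjusted p = 0.0036) and -0.08 ± 0.08 in HBL-1, so the 2 probes disagreed in HBL-1. In K422 it gave 0.08 ± 0.08, below 0 on the 3 arrays with siFOXP1 #1 and above 0 on the 3 with #2, where the brightest probe was above 0 on all 6. CCND1 could be read in OCI-Ly3 with 2 probes. Its ratio ran from -0.17 to 0.52 with a fitted change of 0.02 ± 0.36, and was 0.21 ± 0.12 with the second probe. The third probe was near background there, and its value (0.04 ± 0.17) is no measurement of a change. CCND1 values in the other lines were at or near background, with array values as far apart as -1.83 and 3.46, and no change is given.

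CDK4 and CDK6 were not called in any line. CDK4 had fitted changes from -0.10 to 0.06 with an SE of 0.06, and its 95% interval stayed within -0.23 and 0.18 in all lines. CDK6 had fitted changes from -0.17 in HBL-1, where 6 of 6 arrays were below 0 (adjusted p = 0.090), to 0.08 in DB, with an SE of 0.07 and 95% intervals within -0.32 and 0.235. Its second probe gave -0.22 to 0.04. With the brightest probes, these intervals of the mean ratio over both siRNAs stayed within the limit of 0.5. They rest on a spread pooled over all lines and do not give that of a single line. In DB the arrays ran from -0.38 to 0.41 for CDK4 (SD 0.26) and from -0.23 to 0.46 for CDK6 (SD 0.28). The intervals describe the ratio, in which a dye effect and an effect of silencing cannot be told apart.

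CCNE1 had small negative ratios on all arrays of 3 lines, HBL-1, K422 and OCI-Ly3. It ran from -0.40 to -0.21 (median -0.26) on the 6 arrays of K422 and from -0.46 to -0.15 (median -0.32) in HBL-1. The fitted change was -0.28 ± 0.07 in K422 (SE, adjusted p = 0.012) and -0.31 ± 0.07 for HBL-1 (adjusted p = 0.0032), under the limit on size. In OCI-Ly3 it was -0.13 ± 0.07 with 6 of 6 arrays below 0 (adjusted p = 0.24), and in DB -0.01 ± 0.07. CCNE2 in HBL-1 was -0.42 ± 0.14 (adjusted p = 0.027) and rested on siFOXP1 #2, whose arrays lay at -1.51, -0.21 and -0.67 against 0.00, 0.03 and -0.13 with #1. That difference between siRNAs did not pass the test (-0.76 ± 0.27 SE, adjusted p = 0.57). In the other lines CCNE2 was between -0.07 and 0.07.

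CDKN2C, the gene of the INK4 inhibitor p18, rose in K422. Its ratio was 0.62, 0.45 and 0.32 with siFOXP1 #1 and 0.78, 0.60 and 0.59 with #2, a fitted change of 0.56 ± 0.06 (SE, 1.48-fold higher, adjusted p = 2.5e-06). The value was close to the limit of 0.5, and the call was lost with normexp and loess (0.49) or median centring (0.27), with siFOXP1 #1 alone (0.46) and without K422 replicate 1 (0.49). The ratio for DB ran from -0.06 to 0.64 (median 0.30) with a fitted change of 0.30 ± 0.06 (adjusted p = 0.0016), above 0 on 5 of 6 arrays but under the limit. Over 13 alternative fits and ways of processing, the change in DB ran from -0.006 to 0.45 and did not pass the adjusted p in all. In HBL-1 the ratio ran from 0.01 to 0.26 (median 0.17), all above 0, with a fitted change of 0.15 ± 0.06 (adjusted p = 0.055).

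In OCI-Ly3, the line with the least CDKN2C, the siRNAs gave opposite signs. The ratio was -0.29, -0.24 and -0.40 with #1 and 0.16, 0.22 and 0.41 with #2, so the groups did not overlap and the mean over both was -0.02. The difference of #2 minus #1 was 0.57 ± 0.11 (SE, adjusted p = 0.042), the only 1 called among the 10 genes in 4 lines. Of all genes, 0.192% were called between siRNAs for OCI-Ly3, 0.173% for HBL-1, 0.159% for K422 and 0.302% for DB. The call was lost without any 1 replicate of OCI-Ly3 or HBL-1, without K422 replicate 2 or 3 and without DB replicate 3 (9 of 12 leave-outs, adjusted p from 0.052 to 0.32). It was also lost with normexp (adjusted p of 0.09 with loess and 0.66 with median centring), with the deposited matrix (0.087) and in a fit of OCI-Ly3 alone (0.20).

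CDKN1B, which encodes p27, was called lower in DB, on uneven arrays. Its ratio was -0.33, -1.72 and 0.26 in replicates 1 to 3 with siFOXP1 #1 and -0.46, -1.05 and -0.07 with #2, a fitted change of -0.56 ± 0.17 (SE, adjusted p = 0.039) with an SD of 0.72. Both arrays of replicate 2 were the lowest, and without that replicate the value was -0.15 (adjusted p = 0.49). The call was lost in 11 of 12 leave-outs of 1 replicate of any line, all but that of DB replicate 3 (-0.89, adjusted p = 0.0015). With the replicate as a block the adjusted p was 0.058, and in a fit of DB alone it was 0.51. The probe is printed 10 times on each array, and the SD between these spots in DB was at most 0.077, against an SD of 0.72 between arrays. The second probe, whose sequence is given above, gave -0.19 ± 0.13 (adjusted p = 0.45), lowest again in replicate 2 at -1.07 and -0.42. In HBL-1 all 6 arrays were below 0, from -0.44 to -0.01, and in OCI-Ly3 all 6 above 0, from 0.03 to 0.45, and neither line passed the test (adjusted p = 0.288 and 0.415). The second probe gave -0.30 there in HBL-1, with 6 of 6 arrays below 0, and 0.04 in OCI-Ly3.

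**Figure D4:**
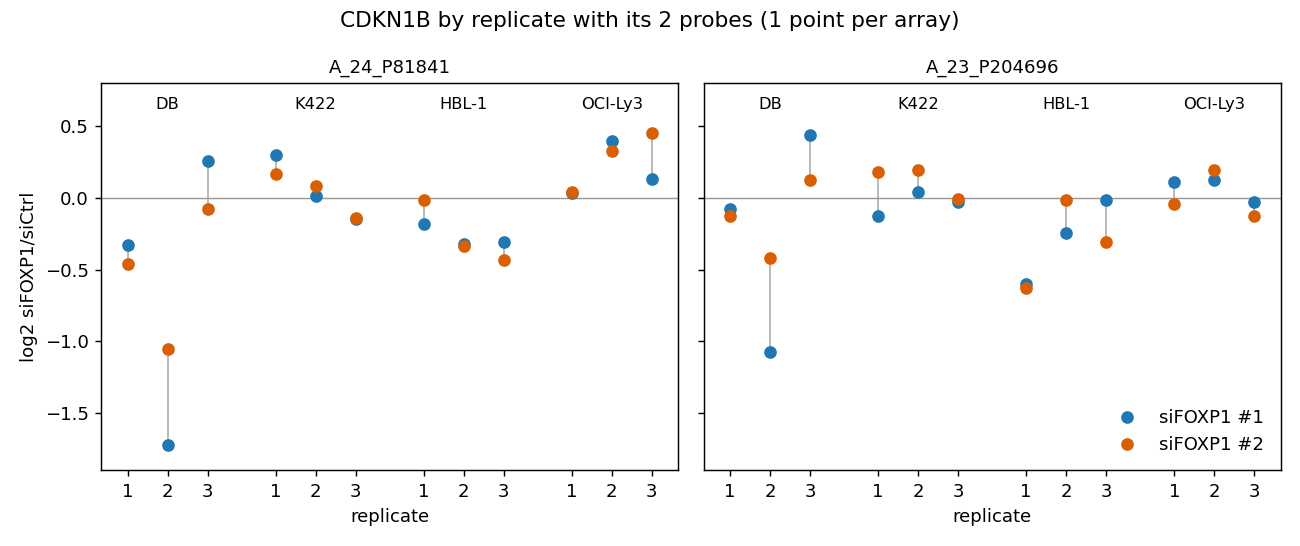
Log2 ratio of siFOXP1 to siCtrl for CDKN1B with its 2 probes (1 panel each), by line and replicate, 1 point per array colored by siRNA, with a gray line joining the 2 arrays of a replicate. In DB both arrays of replicate 2 are the lowest with either probe, and replicate 3 lies near or above 0.

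CDKN2A was not called in any line. Its largest fitted change was -0.20 ± 0.07 in OCI-Ly3 (SE, adjusted p = 0.045), the line with the lowest level, with arrays from -0.52 to 0.04. Over 14 alternatives that change ran from -0.22 to -0.07, with an adjusted p up to 0.80. Leaving out 1 replicate gave an adjusted p up to 0.62. In K422, the line with the highest level, it was 0.09 ± 0.07 (95% interval -0.05 to 0.23), in DB -0.17 ± 0.07 (adjusted p = 0.11) and in HBL-1 0.02 ± 0.07. The second probe gave -0.10 ± 0.04 in K422 and -0.02 ± 0.04 in DB. In DB that probe ran from -0.39 to -0.14 with siFOXP1 #1 and from 0.21 to 0.30 with #2.

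No gene of the 10 was called between the subtypes, which was tested as the mean response of the ABC lines minus that of the GCB lines, against 2.26% of all genes. At an unadjusted p under 0.05 there were 3 of 10 (CCND2, CCND3 and CDKN2C), against 20.7% of all genes. CDKN2C passed the adjusted p but not the limit: its response was lower in the ABC lines by -0.37 ± 0.06 (SE, adjusted p = 3.8e-04), and lower within each scan session, by -0.32 ± 0.08 for OCI-Ly3 minus DB (adjusted p = 0.031) and -0.42 ± 0.08 for HBL-1 minus K422 (adjusted p = 0.0023). The subtype value is the mean of the differences within the sessions, so it is not a separate test. In a limma fit on the 4 line means, which counts lines and not arrays, the subtype difference did not pass (adjusted p = 0.93). It did not pass with normexp and median centring either (-0.29, adjusted p = 0.82). Over 11 alternatives, OCI-Ly3 minus DB ran from -0.46 to -0.07 and HBL-1 minus K422 from -0.54 to -0.29. Neither passed the adjusted p in all of them. CCND2 was called lower in the ABC lines in 4 of the other ways of processing, but with no signal in the GCB lines this sets a change against background.

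Among 33 other genes of the G1/S step, 5 were called in HBL-1, all lower: the phosphatase CDC25A (-0.60 ± 0.12 SE), the E2F family members E2F2 (-0.67 ± 0.09), E2F3 (-0.54 ± 0.06) and E2F8 (-0.82 ± 0.09), and the INK4 inhibitor CDKN2D, p19 (-0.52 ± 0.10), each lower on 6 of 6 arrays with an adjusted p of 7.2e-04 or less. Calls in either direction made up 9.9% of all genes in HBL-1, and lower calls 4.17%. Of the 33, 27 had a fitted change below 0 and 6 above, with a median of -0.25. Of all 30140 genes, 44.2% were below 0 and 13556 were above, with the rest at 0. The shares of all genes include those at background. In K422, CDKN2B, p15, was higher (0.73 ± 0.24, adjusted p = 0.037) and CABLES1, a CDK-binding adaptor, lower, both on dim signals. CDKN2B was well above background on 4 arrays in the siFOXP1 channel and 1 in the siCtrl channel. CABLES1 was so on no array with siFOXP1 and 3 with siCtrl, with a fitted change of -1.14 ± 0.21 (adjusted p = 8.4e-04). Because the siCtrl signal was itself not well above background on all arrays, no bound is given. None of the 33 was called in DB or OCI-Ly3 by limma, where 14 and 16 of the 33 had an unadjusted p under 0.05, against 23.5% and 29.2% of all genes. CDKN2D was the only 1 of the 33 called between subtypes (-0.58 ± 0.10, adjusted p = 0.0010). Its fitted change was -0.52 in HBL-1 but -0.01 in OCI-Ly3, and it was 0.23 in K422 and 0.39 in DB. Within a session, HBL-1 minus K422 was called (-0.75, adjusted p = 0.0018) and OCI-Ly3 minus DB was not (-0.40, adjusted p = 0.15). These p-values do not measure the spread between the lines of a subtype.

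**Figure D5:**
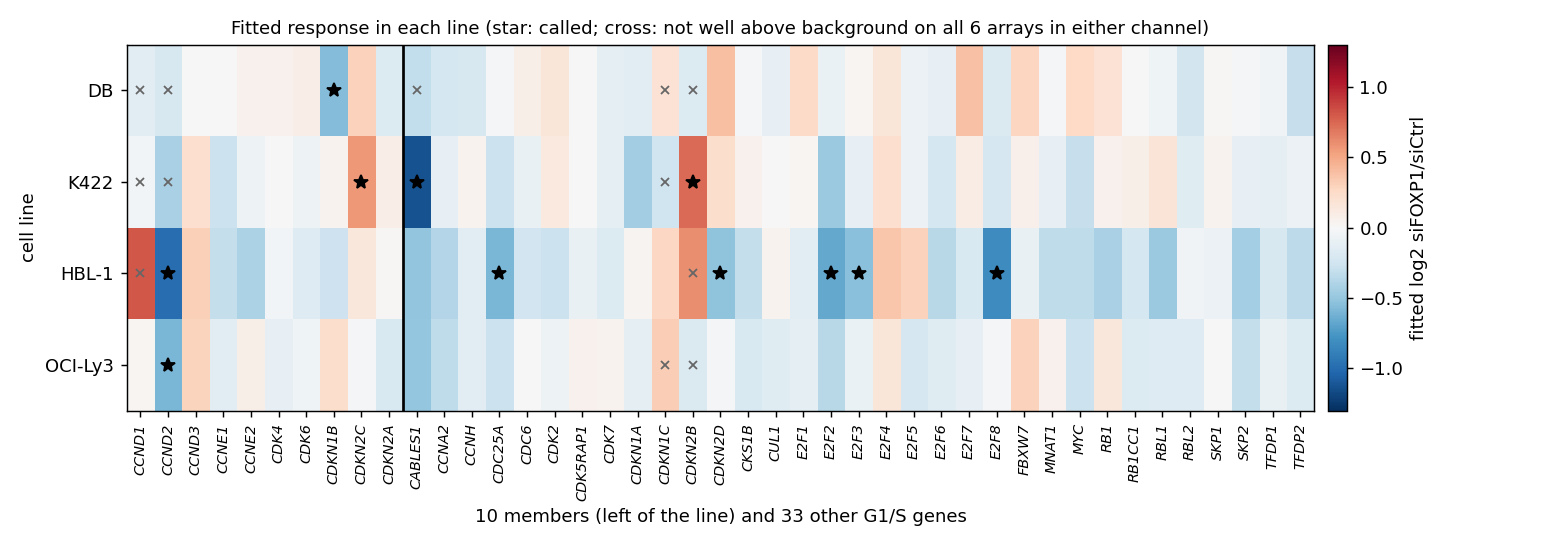
Fitted log2 ratio of siFOXP1 to siCtrl in the 4 lines (rows) for the 10 genes (left of the line) and 33 other G1/S genes, in color, with a star where called and a cross where neither channel was well above background on all 6 arrays and no call was made. HBL-1 has 6 stars, all lower, and K422 has 3, of which those of CABLES1 and CDKN2B rest on dim signals.

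The genes whose log2 ratio over the 24 arrays ran most alike to the called ones were sought among the 16754 genes that stood well above background on at least 12 arrays in each channel. For CCND2 these were FAM90A7 (Pearson r = 0.732), DLX4 (0.725) and DIXDC1 (0.717), with 12 of its own 24 arrays at background. For CDKN2C they were the transcript contig THC2653648 (0.83), CKAP2L (0.811) and KIF21A (0.811), and for CDKN1B they were ING3 (0.892), LMO2 (0.869) and DAPP1 (0.862). The arrays share lines, replicates and slides, so these values only describe the likeness.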

How the data were processed

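Agilent 2-color arrays of 4 DLBCL lines were analysed, 24 in all. The authors scanned them with Feature Extraction, whose deposited intensity and log10 ratio of Cy5 over Cy3 were spatially detrended and dye-normalized, with background correction off per the file headers. The headers give version 10.5.1.1 for DB and OCI-Ly3 and 10.7.3.1 for K422 and HBL-1. A deposited matrix of log2 values ran with log2 of Cy3 over Cy5 on every array (correlation from 0.804 to 0.998).

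The log10 ratio was turned to log2 of siFOXP1 over siCtrl after removal of 1639 control spots and 113 to 469 outlier spots per array. The share of probes well above background in at least 1 channel ran from 57.2% to 64.4%. A ratio at background rests on substituted signal. The brightest of a gene's probes stood for it, and every probe of the 10 genes was examined. Gene names and hg18 positions are those of the array files. R 4.3.3 with limma 3.58.1 fitted 8 group means over 24 arrays for the response, and 4 line means over 12 control samples for levels, with Benjamini-Hochberg adjustment over all 30142 genes. Fits were tested on simulated data, where 58 of 67 genes changed by 0.6 and 66 of 67 changed by 1 in HBL-1 were recovered among 30142 genes. The simulated noise was independent between arrays, and changes were put only into genes brighter than the median. The recovery therefore says nothing on dim genes or on arrays that correlate within a replicate.

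The labels number biological replicates, from separate experiments per the series text. The replicate number paired the 2 arrays that share it in the fit with a block, because the deviations of the 2 arrays with the same number correlated at 0.117 to 0.574 over 16046 genes well above background on most arrays, above 0.1 in every pair. Whether both share 1 control RNA is not given in the sources used here. P-values of the fits over all lines rest on the spread within the groups or lines, pooled over all lines into a single estimate per gene. They do not measure the spread between lines of a subtype, nor that of a single line. Without the block, the response fit counted the 2 arrays of a replicate as independent. The 10 genes, the 33 other G1/S genes and the markers were chosen with earlier results of these data known. The named genes are the 10, FOXP1, those of the 33 that were called, and the 3 genes most alike to each called one. Alternatives were other background corrections and normalizations, the deposited matrix, a filter on dim probes, outlier spots kept, other uses of probes, replicates or slides as blocks, other sets of samples, the methods' t-test, other limits and leaving out replicates.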

Additional observations from a re-analysis of the deposited data

Results flagged for a closer look

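Among 35 sets of 6 arrays (a gene in a line, all arrays well above background), 4 had 1 array apart from the other 5 by Dixon's criterion, which chance gives in about 1 of 20 sets. These were CCNE2 in K422 with siFOXP1 #1 replicate 1 (-0.54, the others from -0.05 to 0.13), CCNE2 in OCI-Ly3 with siFOXP1 #2 replicate 1 (0.52, the others from -0.09 to 0.10), CDK6 in HBL-1 with siFOXP1 #1 replicate 1 (-0.40, the others from -0.16 to -0.08) and CDK6 in OCI-Ly3 with siFOXP1 #1 replicate 2 (0.10, the others from -0.11 to -0.05), all as log2 ratios.

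The response of CDKN2C passed the adjusted p in 4 comparisons: ABC minus GCB lines (-0.37), OCI-Ly3 minus DB (-0.32), HBL-1 minus K422 (-0.42), and siFOXP1 #2 minus #1 in OCI-Ly3 (0.57). The subtype value is the mean of the differences OCI-Ly3 minus DB and HBL-1 minus K422, so it is not a separate test. It did not pass in a fit on the 4 line means. Only the siRNA difference also met the limit on size, and that call was lost in most leave-outs of 1 replicate. CDKN1B was below 0 on all 6 arrays of HBL-1 and above 0 on all 6 of OCI-Ly3, a difference of -0.49 for HBL-1 minus OCI-Ly3 that was not tested.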

How the results depend on the processing

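Dim signal was a limit: in lines where CCND2 and CCND1 were at background no response was measured. No value turned its direction past the threshold. The call of CDKN1B in DB was the least stable, and the cause was not tested. Of the 10 genes, 0 were called in DB and 0 in K422 with normexp and loess and with normexp and median centring. With the deposited matrix 2 were called in DB (CDKN1B and CCND2, the latter at background). The mean over probes, the slide as a block, each line fitted alone, the methods' t-test and either siRNA alone gave 0 in DB. With the replicate number as a block, 0 were called in DB (CDKN1B, adjusted p = 0.058), and no other call changed. In K422, siFOXP1 #1 alone gave 0 and every probe taken separately gave 2 (CCND1, at background, added). In HBL-1, siFOXP1 #2 alone gave 2 (CCNE2 added). In OCI-Ly3, the slide block and siFOXP1 #2 alone gave 0. A log2 limit of 1 gave 0 in every line and 0 between siRNAs. Between subtypes, 1 gene (CCND2) was called with normexp and loess, normexp and median centring, the mean over probes and every probe separately. Between siRNAs, normexp and loess gave 1, but the gene was CCND2 in HBL-1 and not CDKN2C in OCI-Ly3 (0.45, adjusted p = 0.090). Normexp and median centring, the deposited matrix and each line alone (chosen after seeing the data) gave 0, and every probe separately gave 2 (CDKN2A in DB added). For levels, a log2 limit of 0.5 gave 8 genes between OCI-Ly3 and DB. Leaving out 1 replicate of any line gave 0 to 1 genes in DB, 1 in K422, 1 to 3 in HBL-1, 0 to 1 in OCI-Ly3, 0 to 1 between subtypes and 0 to 1 between siRNAs.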
